A study of Mus musculus with 12 samples.

Results

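Transferred CD4 T cells recovered from the colon lamina propria were compared with those recovered from the spleen, in 8 single-cell RNA libraries of mouse cells, 4 from each tissue. The colon libraries were 2 from recipients of Il23r eGFP/eGFP Th1 cells, called KO here because the eGFP cassette disrupts both copies of the interleukin-23 receptor gene, and 2 from recipients of Il23r wt/eGFP Th1 cells, the control, which carry 1 copy of the same cassette. The spleen libraries were likewise 2 KO and 2 control. All 4 groups therefore hold Th1 cells with at least 1 eGFP allele that were put into a recipient, and the labels give neither the strain, age or lymphocyte content of the recipients nor the time after transfer. Each genotype and tissue had 1 library in batch 1 and 1 in batch 2, as the deposited cell table names them. Cells with 3 or more UMIs (unique molecular identifiers, 1 for each captured transcript molecule) of the CD3 chain genes Cd3d, Cd3e and Cd3g together were kept, which left 19792 of the 21744 cells in the 8 libraries, 10628 from colon and 9164 from spleen. The series holds 32763 cells in 12 samples. UMIs of the kept cells were summed within a library, so a library is the unit of every test. The comparison asks how the same transferred cells differ between an effector site in the gut wall and a lymphoid organ, whichever genotype they had.

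T cells patrol between blood and lymphoid organs under the control of a few surface proteins. CCR7 lets them enter lymph nodes, and sphingosine-1-phosphate receptors let them leave a tissue towards blood or lymph. The transcription factor KLF2 keeps the gene of S1PR1 on. T cells that settle in the gut wall are known to lose these proteins and to carry CD69, which pulls S1PR1 off the surface, together with integrins and chemokine receptors that hold them near the epithelium. In the colon they meet microbial antigen, and their cytokines, such as interferon-gamma, interleukin-17A, interleukin-22 and amphiregulin, act on epithelium and myeloid cells.

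Kept cells made up 92.3% ± 3.26 of colon barcodes and 86.2% ± 7.95 of spleen barcodes (SD, n = 4 libraries each; exact 2-sided permutation p = 0.229, adjusted p = 0.629 over 5 library measures, where the smallest possible p was 0.0286). Median depth was 2327.5 to 4450 UMIs per kept cell in colon libraries and 2382 to 5690 in spleen libraries. Library totals of kept cells were 7041088 to 13248318 UMIs for colon and 5061875 to 13193263 for spleen. Pairs of libraries shared 1 to 27 cell barcodes, at most 1.01% of the smaller library. Cd4, which the cell filter did not use, had 234, 278, 291 and 218 CPM (UMI counts scaled to a common library total) in colon against 271, 203, 279 and 180 CPM in spleen, and so was present in every library of both tissues. Cells with a UMI of Cd8a or Cd8b1 made up 0.723% to 1.45% of kept cells in colon libraries and 1.05% to 3.66% in spleen libraries. The targeted gene could not check the genotype labels, because 3′ tags can come from transcript beyond the cassette. Il23r had 2.93, 2.25, 1.18 and 1.64 CPM in colon and 3.16, 0.604, 1.21 and 0.882 CPM in spleen, with KO 1, KO 2, control 1 and control 2 in this order in each tissue, and that order is used for all values by library below.

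The first principal component, with 63.7% of the variance, parted the colon from the spleen libraries, and the second, with 17.2%, parted batch 1 from batch 2. Colon control 2 lay nearest to the spleen libraries of the 4 colon libraries. Among genes called higher from these same libraries, the median log2 ratio of colon over spleen was 0.94 in KO batch 1, 0.75 in KO batch 2, 0.96 in control batch 1 and 0.56 in control batch 2. Spleen cells were freed with a syringe plunger and red cell lysis, and gut cells with a lamina propria dissociation kit, so tissue and isolation method cannot be told apart in any value below. In summed libraries, fewer cells of a kind and less RNA per cell cannot be told apart either.

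**Figure D1:**
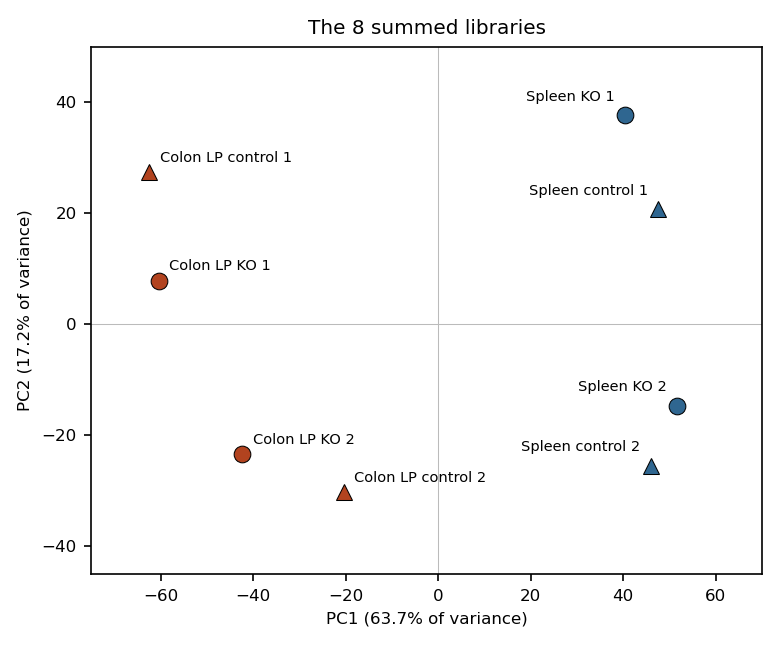
Position of the 8 summed libraries on the first and second principal components of log2 expression. Colon LP (lamina propria, red) lies left of spleen (blue), circles are KO and triangles control. Colon LP control 2 sits at -20.4 on the first component, nearest to the spleen libraries, which lie between 40.5 and 51.6.

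A large part of the expressed genes differed between the tissues. Of 10414 genes tested with edgeR, 4588 (44.1%) were called at an adjusted p below 0.05, 2400 (23.0%) higher and 2188 (21.0%) lower in colon lamina propria. These 23.0% and 21.0% are the background for every count of list members below. More than a 2-fold difference was seen for 1005 of the genes called higher and 753 of those called lower. All 4 pairs of colon and spleen libraries of the same genotype and batch moved the same way for 4434 of the 4588 called genes. The calls came from the same libraries, so this count is no independent support. Tested against a fold change of 1.5, 976 genes (9.37%) were higher and 597 (5.73%) lower. The split by direction depended on scaling. With library totals in place of TMM scaling, which sets libraries level on most genes, the median of all genes shifted by -0.25 on the log2 scale, and of 5290 genes called 1577 (29.8%) were higher, against 52.3% of those called with TMM.

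**Figure D2:**
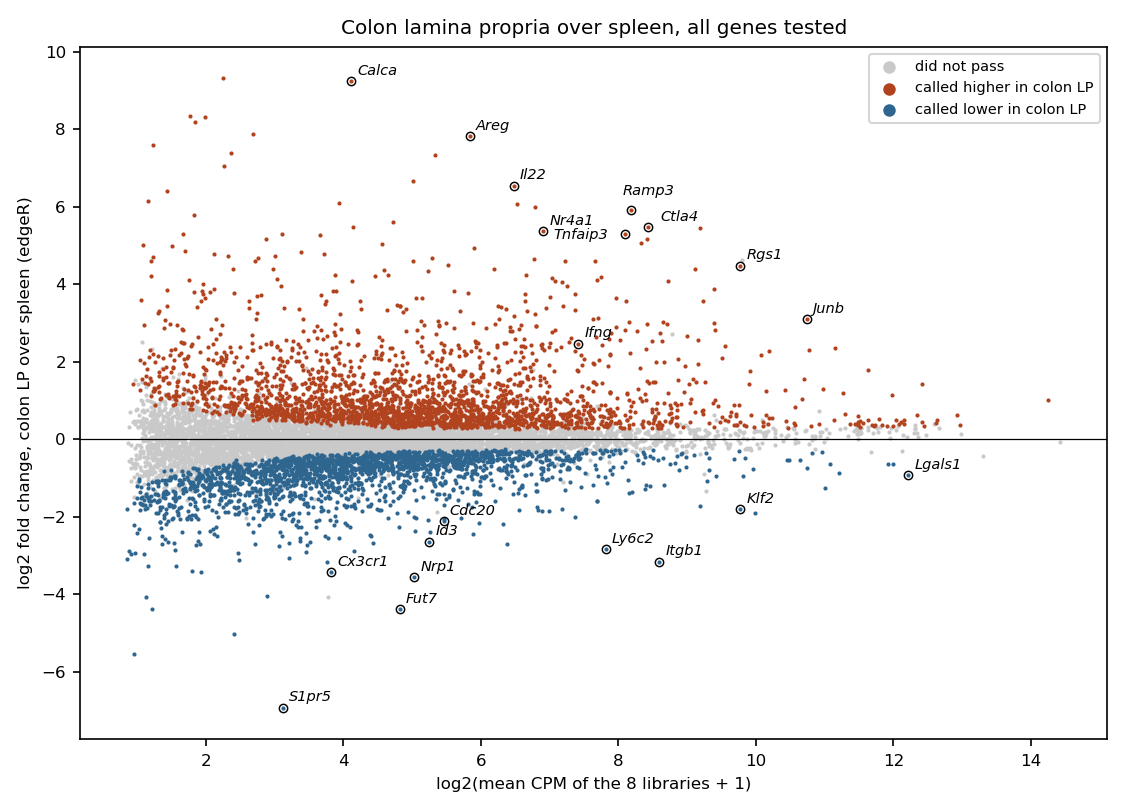
Each point is 1 of 10414 genes, with its mean level over the 8 libraries (x axis, log2 of CPM + 1) and its log2 fold change, colon LP over spleen (y axis). Red marks 2400 genes called higher in colon LP, blue 2188 called lower, and grey those that did not pass. Areg, Il22 and Nr4a1 lie far above 0, and S1pr5, Fut7 and Nrp1 far below.

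Genes that let T cells recirculate were lower in colon lamina propria. Of 11 tested genes of lymphocyte egress and lymphoid homing, 7 were called lower (against 21.0% of all genes tested) and 1 higher, with a median log2 fold change of -0.98, where the median of all genes was 0.00. S1pr5, a sphingosine-1-phosphate receptor of effector lymphocytes at chr9:21242912-21248443 on the minus strand (mm10, GENCODE), had 0.0887, 0, 0.338 and 0.0863 CPM in colon and 37.6, 9.47, 11.2 and 3.09 CPM in spleen. That is 4 UMIs in all colon cells against 461 in all spleen cells, and the gene was close to undetected in each colon library. The pooled ratio, spleen over colon, was 130 with an exact 95% counting interval of 50.3 to 478. The groups did not overlap, as for 18.1% of all genes tested on the lower side and 19.6% on the higher side. Klf2, the transcription factor at chr8:72319033-72321656, had 290, 332, 362 and 612 CPM in colon and 1495, 1011, 1375 and 1523 CPM in spleen. It was lower in every colon library than in any spleen library, 3.5-fold in the fit (adjusted p = 0.00034), and colon control 2 had the highest of the colon values.

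The egress receptors that S1P-guided exit rests on changed less than S1pr5. S1pr1 had 58.3, 36.3, 58.2 and 82.7 CPM in colon and 117, 90.1, 104 and 110 CPM in spleen, a fall of 0.86 ± 0.20 on the log2 scale (SE, adjusted p = 0.01). Its call was lost in batch 2 alone (log2 fold change -0.87, adjusted p = 0.0613) and in control alone (-0.62, adjusted p = 0.0908). S1pr4 fell by 0.98 (SE 0.13, adjusted p = 0.00044), and Fam65b, an inhibitor of the GTPase RhoA, by 1.17 (SE 0.12, adjusted p = 0.00011). Ccr7, the lymph node homing receptor, did not pass (log2 fold change -0.19 ± 0.41, adjusted p = 0.74), with 94, 15.4, 52.4 and 57.1 CPM in colon against 76.6, 32.7, 75.7 and 59.4 CPM in spleen. The gene called higher in the list was Klf3, a relative of Klf2 that acts as a repressor, at 161, 91.3, 179 and 85.3 CPM in colon and 79.6, 58.8, 64.4 and 77.1 CPM in spleen (log2 fold change 0.81 ± 0.20, adjusted p = 0.011), a call lost in batch 2 alone (0.37, adjusted p = 0.205).

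More genes of naive and central memory cells were called lower than higher. Of 18 tested, 8 (44.4%) were called lower and 3 (16.7%) higher, against 21.0% and 23.0% of all genes. Id3, an inhibitor of E proteins, had 10.9, 12.9, 10.3 and 7.07 CPM in colon and 74, 68.9, 60.3 and 51.5 CPM in spleen, a fall of 2.65 ± 0.14 on the log2 scale (SE, adjusted p = 2.6e-06). Il6ra, the ligand-binding chain of the interleukin-6 receptor, fell by 3.07 (SE 0.22, adjusted p = 1.3e-05), and Actn1, an actin cross-linker, by 1.69 (SE 0.20, adjusted p = 0.00029). The core factor Tcf7 did not pass (log2 fold change -0.12 ± 0.12, adjusted p = 0.45), with 93.1 to 128 CPM in colon libraries and 107 to 134 CPM in spleen libraries. With library totals it was called lower (-0.36, adjusted p = 0.0309). Il7r, the interleukin-7 receptor chain, did not pass either (0.20 ± 0.21, adjusted p = 0.47), although without spleen control 2 it was called higher (0.47, adjusted p = 0.0232).

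Residency genes were higher almost throughout. Of 20 tested, 17 were called higher (against 23.0% of all genes) and none lower, with a median log2 fold change of 1.97. All 4 colon libraries were above all 4 spleen libraries for 17, against 19.6% of all genes. Rgs1, which shortens signals from chemokine receptors, had 1884, 1514, 2190 and 1121 CPM in colon and 66.6, 83, 66.5 and 77.8 CPM in spleen. Every colon library was far above every spleen library, 22.3-fold in the fit (log2 fold change 4.48 ± 0.23, adjusted p = 6.6e-06). Rgs2, of the same family, had 976, 438, 840 and 236 CPM in colon and 23.2, 11.5, 14.4 and 16.3 CPM in spleen (5.07 ± 0.35, adjusted p = 7.7e-05), highest in the colon libraries of batch 1. Bhlhe40, a transcriptional repressor that sustains cytokine production, had 925, 1518, 1200 and 1091 CPM in colon and 202, 155, 192 and 131 CPM in spleen (2.81 ± 0.20, adjusted p = 2.9e-05). Prdm1, which encodes BLIMP-1, was 4.3-fold higher (2.10 ± 0.18, adjusted p = 3.9e-05), and Ppp1r16b, a regulatory subunit of protein phosphatase 1, was 3.58-fold higher (1.84 ± 0.11, adjusted p = 4.9e-06).

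Cd69 and Itgae encode the surface proteins most used to define resident T cells. Cd69 had 242, 559, 327 and 334 CPM in colon and 66.4, 53.2, 65.2 and 79 CPM in spleen, without overlap (log2 fold change 2.44 ± 0.25, adjusted p = 0.00032). Itgae, the alpha chain of the integrin that binds E-cadherin, had 18.4, 23.1, 21.3 and 60.9 CPM in colon and 29.9, 3.56, 7.95 and 17.3 CPM in spleen. Its groups overlapped, because spleen KO 1 was above 3 of the colon libraries, and it did not pass (1.07 ± 0.83, adjusted p = 0.34). Without spleen KO 1 it was called higher (2.10, adjusted p = 0.00597). Cxcr6, the receptor for CXCL16, had 787, 803, 1057 and 840 CPM in colon and 466, 478, 409 and 479 CPM in spleen (0.92 ± 0.13, adjusted p = 0.00045).

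**Figure D3:**
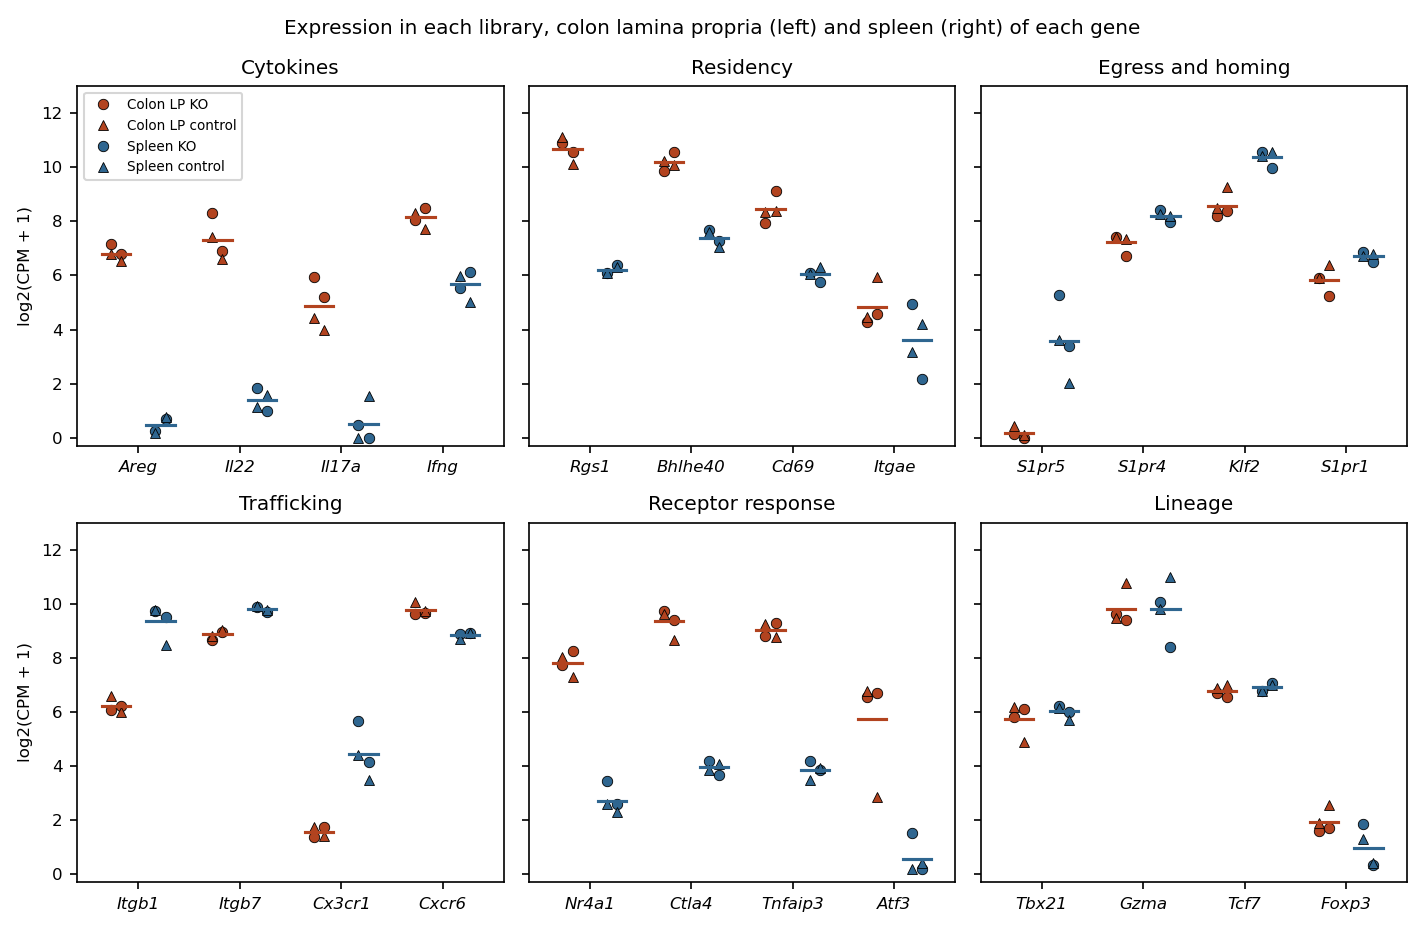
Level of 24 genes in each library as log2(CPM + 1), with colon LP (red) left of spleen (blue) for each gene, circles for KO, triangles for control and a bar at the mean of 4 libraries. Areg, Rgs1 and Ctla4 have all colon libraries above all spleen libraries, S1pr5, S1pr4, Klf2 and Itgb1 have them all below, and Itgae, Tbx21, Gzma, Tcf7 and Foxp3 overlap.

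Integrins and chemokine receptors moved in both directions. Of 20 tested genes of gut homing and chemokine receptors, 10 were called higher and 5 lower (median log2 fold change 0.81). Among all genes the shares were 23.0% and 21.0%, so the share called lower (25%) was near that of all genes. Itgb1, the beta chain of the VLA integrins, had 66.9, 73.9, 96.1 and 63.7 CPM in colon and 840, 730, 859 and 351 CPM in spleen, an 8.95-fold lower level in the fit (-3.16 ± 0.26, adjusted p = 0.00011). Itgb7, the beta chain of the gut-homing integrin that binds MAdCAM-1, was also lower, at 408, 493, 443 and 523 CPM in colon against 947, 833, 969 and 874 CPM in spleen (-0.96 ± 0.12, adjusted p = 0.00022). Its partner Itga4 did not pass (-0.33 ± 0.12, adjusted p = 0.052), but was called lower with each pair of libraries as its own replicate block (-0.34, adjusted p = 0.0282). Cx3cr1, the fractalkine receptor of circulating effector cells, had 1.6, 2.37, 2.37 and 1.64 CPM in colon and 49.6, 16.6, 20.5 and 10.3 CPM in spleen (-3.43 ± 0.36, adjusted p = 0.00027). Both groups of libraries were well apart for these 3 called genes. Fut7, a fucosyltransferase, fell by 4.38 (SE 0.53, adjusted p = 0.0011), with 1.33, 1.87, 5.41 and 1.12 CPM in colon and 115, 31.5, 40.3 and 21.8 CPM in spleen, a difference that was as large in batch 1 alone but not called there (-4.59, adjusted p = 0.288).

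Receptors that were higher in colon included Gpr183, the oxysterol receptor also called EBI2, at 297, 252, 324 and 236 CPM in colon and 91.3, 43.2, 82 and 82 CPM in spleen (log2 fold change 1.92 ± 0.17, adjusted p = 7e-05). The orphan receptor Gpr171 was 2.78-fold higher (1.47 ± 0.12, adjusted p = 3e-05), and the chemokine receptor gene Ccr1 5.48-fold (2.45 ± 0.24, adjusted p = 7.7e-05). Ccr9, the receptor for the small intestinal chemokine CCL25, had 22.5, 11, 20.6 and 23.3 CPM in colon and 2.05, 3.89, 2.42 and 21.5 CPM in spleen. It did not pass (1.69 ± 0.73, adjusted p = 0.11), and spleen control 2 alone among the spleen libraries reached the colon values. Without that library it was called higher (2.65, adjusted p = 0.0014), as it was in DESeq2 with all libraries (1.95, adjusted p = 0.0323).

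Promoter windows of 250 bases before to 50 bases after the transcription start are shown for 4 trafficking and residency genes, S1pr5, Itgb1, Rgs2 and Prdm1. These are among the 6 called genes of these lists with the smallest p that had 1 window in the RefSeq table (GRCm38.p6). Areg, described below, is shown too. It was chosen after its values were seen and because its window held the cyclic AMP response element, so that match is no finding. Among the 15 largest called fold changes upward, 12 genes had a window and 2 of these, Areg included, held that motif. The 5 windows lie at chr9:21248394-21248693 (minus strand), chr8:128685404-128685703 (plus), chr1:144004100-144004399 (minus), chr10:44458699-44458998 (minus) and chr5:91139349-91139648 (plus), and each is written 5′ to 3′ on the strand of its gene. Capitals mark matches on either strand to the AP-1 motif TGANTCA, the cyclic AMP response element TGACGTCA and the CACCC motif CCACCC, which overlap nowhere in these 5 windows.
S1pr5: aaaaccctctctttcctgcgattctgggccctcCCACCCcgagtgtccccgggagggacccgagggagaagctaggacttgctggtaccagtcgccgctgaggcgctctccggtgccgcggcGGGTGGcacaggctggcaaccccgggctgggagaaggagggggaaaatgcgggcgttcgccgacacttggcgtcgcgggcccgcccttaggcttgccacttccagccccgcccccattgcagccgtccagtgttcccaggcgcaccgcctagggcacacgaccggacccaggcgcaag
Itgb1: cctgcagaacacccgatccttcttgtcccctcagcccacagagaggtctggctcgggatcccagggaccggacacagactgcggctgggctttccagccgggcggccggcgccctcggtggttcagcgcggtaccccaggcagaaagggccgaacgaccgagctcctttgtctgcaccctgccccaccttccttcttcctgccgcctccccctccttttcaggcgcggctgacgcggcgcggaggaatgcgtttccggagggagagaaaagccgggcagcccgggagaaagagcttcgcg
Rgs2: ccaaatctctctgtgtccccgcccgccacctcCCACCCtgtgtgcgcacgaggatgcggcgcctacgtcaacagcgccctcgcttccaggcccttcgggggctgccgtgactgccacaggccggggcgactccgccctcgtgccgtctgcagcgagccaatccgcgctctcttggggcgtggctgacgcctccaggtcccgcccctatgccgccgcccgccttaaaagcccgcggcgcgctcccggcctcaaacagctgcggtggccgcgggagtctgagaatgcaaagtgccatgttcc
Prdm1: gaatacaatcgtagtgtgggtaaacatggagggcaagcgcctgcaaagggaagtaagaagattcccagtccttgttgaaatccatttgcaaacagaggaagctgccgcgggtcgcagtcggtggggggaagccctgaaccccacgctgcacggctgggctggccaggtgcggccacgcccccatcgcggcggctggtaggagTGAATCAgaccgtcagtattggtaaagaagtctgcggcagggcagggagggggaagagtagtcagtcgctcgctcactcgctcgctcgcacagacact
Areg: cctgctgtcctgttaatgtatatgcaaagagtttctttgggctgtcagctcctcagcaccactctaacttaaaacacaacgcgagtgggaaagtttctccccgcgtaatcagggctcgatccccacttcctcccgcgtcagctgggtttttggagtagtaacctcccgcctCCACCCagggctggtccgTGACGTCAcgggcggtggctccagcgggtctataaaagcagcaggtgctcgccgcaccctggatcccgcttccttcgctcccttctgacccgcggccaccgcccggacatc
S1pr5 held 2 CACCC matches and Rgs2 1, Prdm1 held 1 AP-1 match, Areg held 1 cyclic AMP response element and 1 CACCC match, and Itgb1 held none of the motifs, nor did the windows of Gpr183 and Ccr1, the other two of the 6. Of all 32851 windows in the table, 7.81% held the AP-1 motif, 1.79% the cyclic AMP response element and 31.5% the CACCC motif. Windows were found for 7922 of the 10414 genes tested, counted with 1 window a gene. The cyclic AMP response element was in 97 of 1807 windows (5.37%) of genes called higher, 33 of 1699 (1.94%) of genes called lower and 149 of 4416 (3.37%) of genes not called. The AP-1 motif was in 5.2%, 3.88% and 4.55% of the same 3 sets, and the CACCC motif in 37.2%, 36.8% and 34.7%. These shares describe letters in windows and were not tested.

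Genes known to be induced through the T cell receptor were higher in the colon. Isolation method and tissue cannot be told apart here either, and receptor signalling was not tested. Of 19 tested antigen receptor response genes, 15 were called higher (against 23.0% of all genes) and none lower, with a median log2 fold change of 2.44. Nr4a1, an orphan nuclear receptor induced within hours of receptor ligation, had 212, 301, 261 and 155 CPM in colon and 9.85, 5.04, 4.98 and 3.88 CPM in spleen, a 41.4-fold higher level in the fit (5.37 ± 0.27, adjusted p = 8.7e-06). Its relatives Nr4a2 (6.06 ± 0.30, adjusted p = 8.7e-06) and Nr4a3 (5.62 ± 0.49, adjusted p = 0.00022) did the same. Irf4, a factor whose level follows receptor signal strength, had 39.9, 56.9, 40.6 and 35.9 CPM in colon and 4.83, 4.1, 4.58 and 3.88 CPM in spleen (3.32 ± 0.17, adjusted p = 2.6e-06). The costimulatory receptors Tnfrsf4 (OX40) and Icos were 14.6-fold and 7.89-fold higher (adjusted p = 6e-05 and 4.5e-05). Other early genes of the list did not pass, among them Egr2 (log2 fold change -0.20, adjusted p = 0.63) and the cytokine gene Tnf (-0.03, adjusted p = 0.94).

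Genes of feedback inhibitors were among the largest differences, with isolation method again not separable from tissue. Ctla4, which competes with CD28 for its ligands, had 842, 669, 777 and 406 CPM in colon and 17.3, 11.8, 13.6 and 16 CPM in spleen, 44.5-fold higher in the fit (5.48 ± 0.22, adjusted p = 1.7e-06). All 18 tested genes of NF-kappa B and its feedback were called higher, against 23.0% of all genes (median log2 fold change 2.37). No overlap between tissues was seen for 17 of them, as for 19.6% of all genes on the higher side. Tnfaip3, which encodes the ubiquitin-editing inhibitor A20, had 448, 625, 612 and 437 CPM in colon and 17.1, 13.6, 10.1 and 14.1 CPM in spleen (5.28 ± 0.21, adjusted p = 1.7e-06). Of the other members, Zc3h12a, the RNase Regnase-1, was 18.8-fold higher (adjusted p = 5.8e-06), Nfkbiz, a nuclear cofactor of NF-kappa B, 16.8-fold (adjusted p = 3.7e-06) and Nfkbia, the inhibitor I-kappa-B-alpha, 5.3-fold (adjusted p = 8.7e-06). The 7 of 10 dual specificity phosphatases called higher, which switch off MAP kinases, included Dusp4 (5.04 ± 0.39, adjusted p = 8.2e-05), Dusp5 (3.58 ± 0.20, adjusted p = 8.7e-06) and Dusp1 (4.59 ± 0.27, adjusted p = 2.6e-05), and none was lower. The other co-inhibitory receptors did not follow Ctla4 as a group, since of 16 tested 4 were called higher and 2 lower (median log2 fold change 0.06), and with library totals 4 higher and 5 lower. The share called higher (25%) was near the 23.0% of all genes, and the share called lower (12.5%) was below the 21.0%.

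AP-1 genes and chaperones, which cell isolation is also known to induce, were higher too. Of 13 tested AP-1 genes 11 were called higher, against 23.0% of all genes (median log2 fold change 2.35). All 11 were without overlap, as were 19.6% of all genes on the higher side. Fosl2 had 314, 131, 345 and 73.4 CPM in colon and 4.46, 2.15, 2.42 and 2.64 CPM in spleen (5.99 ± 0.35, adjusted p = 2.9e-05). Junb had 2722, 4275, 3023 and 2222 CPM in colon and 434, 302, 340 and 345 CPM in spleen (3.10 ± 0.21, adjusted p = 1.8e-05), and Maff was 100-fold higher (6.65 ± 0.56, adjusted p = 0.00026). Atf3, a stress-induced member of the wider family, had 92.7, 103, 109 and 6.21 CPM in colon and 1.86, 0.134, 0.135 and 0.353 CPM in spleen (7.34 ± 1.11, adjusted p = 0.0049). Colon control 2 was far below the other colon libraries for Atf3 but still above each spleen library, and the call was lost in batch 1 alone (6.82, adjusted p = 0.0819) and in KO alone (7.20, adjusted p = 0.0607). Of 19 heat shock and chaperone genes, 12 were called higher and 1 lower, against 23.0% and 21.0% of all genes. All colon libraries were above all spleen libraries for 5 of the 19, against 19.6% of all genes. Hspa5, the chaperone BiP of the endoplasmic reticulum, had 2201, 1710, 2131 and 1068 CPM in colon and 434, 395, 412 and 295 CPM in spleen (2.18 ± 0.14, adjusted p = 8.7e-06), and its cochaperone Dnajb9 was 4.89-fold higher (adjusted p = 8.7e-06).

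Stress-induced Hspa1a varied widely within each tissue, with 1100, 4583, 1021 and 36.8 CPM in colon and 247, 59.2, 79.1 and 1.68 CPM in spleen. It did not pass in edgeR (4.63 ± 1.58, adjusted p = 0.078) but did in DESeq2 (4.72, adjusted p = 0.000352), and its reads can be shared with the near-identical copy Hspa1b. The median log2 ratio of the chaperone list was 1.49, 2.11 and 1.49 in the KO 1, KO 2 and control 1 pairs of colon and spleen, and 0.15 in the control 2 pair. Of its members, 6 were called higher in batch 2 alone, 5 in control alone, 5 without colon control 1, and 8 without spleen KO 1 or without spleen KO 2. The count was 14 of 20 in KO alone, and 16 of 20 in batch 1 alone and without colon control 2. Over all genes, 1006 were called higher in batch 2 alone and 995 in control alone, against 2400 with all libraries. In KO alone 1599 were called higher, and in batch 1 alone 2403. The AP-1 list had medians of 1.92, 3.82, 2.31 and 2.25 in the 4 pairs, and the NF-kappa B list 2.35, 2.11, 2.56 and 1.81. Of 13 AP-1 genes, 6 were called higher in KO alone, 9 in each batch alone, 10 in control alone and 8 without colon control 1. Of 18 NF-kappa B genes, 16 were called higher in KO alone and 14 in control alone. Isolation and tissue cannot be told apart in these values, nor in those of the antigen receptor, feedback and residency genes above.

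**Figure D4:**
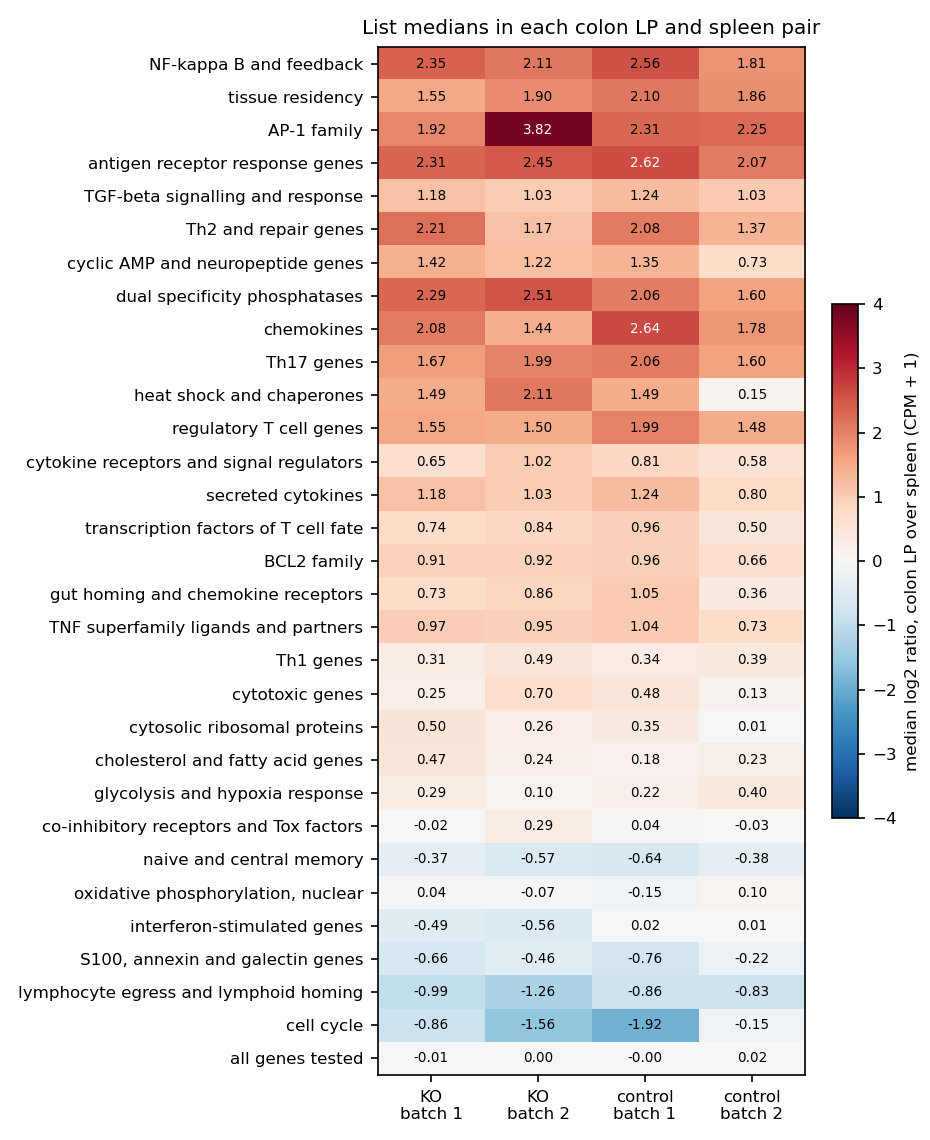
Median log2 ratio, colon LP over spleen, of the tested members of 30 gene lists and of all genes in the 4 pairs of libraries of 1 genotype and batch, on log2(CPM + 1) values. NF-kappa B, residency, AP-1 and antigen receptor lists are above 1.5 in each pair, whereas the chaperone and cell cycle lists are near 0 in the control pair of batch 2 (0.15 and -0.15).

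Several cytokine genes differed by large factors. Of 17 tested secreted cytokines, 10 were called higher and 1 lower, against 23.0% and 21.0% of all genes (median log2 fold change 1.56). Areg at chr5:91139599-91148432, which encodes the epithelial growth factor amphiregulin, had 141, 108, 109 and 91.7 CPM in colon and 0.186, 0.604, 0.135 and 0.705 CPM in spleen. These are 4164 UMIs in colon against 19 in spleen, a 225-fold higher level in the fit (7.81 ± 0.29, adjusted p = 1.5e-06). Il22, the cytokine that acts on epithelial repair and defence, had 316, 118, 169 and 97.1 CPM in colon and 2.6, 1.01, 1.21 and 2.03 CPM in spleen (6.55 ± 0.34, adjusted p = 1.3e-05). Il17a had 60.7, 35.5, 20.6 and 14.7 CPM in colon and 0.372, 0, 0 and 1.94 CPM in spleen (5.47 ± 0.98, adjusted p = 0.0071). All colon libraries exceeded all spleen libraries for these 3 genes. The call of Il17a was lost in batch 2 alone (4.74, adjusted p = 0.0605). Ifng, the defining Th1 cytokine at chr10:118441046-118445892, had 264, 359, 315 and 211 CPM in colon and 45.7, 68.6, 62.1 and 31.5 CPM in spleen, 5.53-fold higher without overlap (2.47 ± 0.27, adjusted p = 0.00047).

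Il10 and Il4 were called higher although their groups overlapped. Il10 had 11.9, 11.5, 7.61 and 2.67 CPM in colon and 0.744, 4.36, 0.808 and 1.15 CPM in spleen (2.11 ± 0.51, adjusted p = 0.013). Il4 had 12.2, 1.37, 18.1 and 6.82 CPM in colon and 1.86, 0.403, 3.5 and 3.26 CPM in spleen (1.97 ± 0.46, adjusted p = 0.01), a call lost in batch 2 alone (1.24, adjusted p = 0.0859). The cytokine gene called lower was Osm, oncostatin M, at 6.38, 4.37, 7.27 and 6.73 CPM in colon and 26.4, 17.4, 21.1 and 20.7 CPM in spleen (-1.79 ± 0.17, adjusted p = 6.3e-05). Of 18 tested TNF superfamily ligands and partners, 9 were called higher and 2 lower, against 23.0% and 21.0% of all genes. The median log2 fold change was 0.62. In KO alone it was 0.22, with 7 of 19 called higher, where 1599 of all genes were called higher. Tnfsf11, the ligand RANKL, was 12.6-fold higher (3.66 ± 0.34, adjusted p = 0.00029), Tnfsf8, the CD30 ligand, 7.87-fold (2.98 ± 0.28, adjusted p = 0.00025) and the TNF receptor gene Tnfrsf1b 6.9-fold (adjusted p = 3.6e-06). Of 9 chemokine genes 6 were called higher, against 23.0% of all genes (median log2 fold change 2.98). With cells thinned to equal depth, 6 chemokine genes were tested and 2 called higher (median 1.92). In that fit 1866 of 9413 genes were called higher. The chemokine genes called with all UMIs included Cxcl10, a ligand of CXCR3, at 136, 122, 153 and 43.1 CPM in colon and 4.09, 3.89, 3.91 and 2.12 CPM in spleen (4.93 ± 0.33, adjusted p = 4.7e-05).

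Receptors and regulators of cytokine signals were mostly higher where called, 19 of 31 against 4 lower, and so were transcription factors of T cell fate, 20 of 35 against 4. Of 12 genes that sense aryl hydrocarbons, retinoids or vitamin D, 6 were called higher and 1 lower. The shares among all genes were 23.0% and 21.0%.

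Some lineage factor genes were called higher and others did not pass. Of 19 Th1 genes 8 were called higher and 1 lower, against 23.0% and 21.0% of all genes (median log2 fold change 0.33). The Th1 factor Tbx21, which encodes T-bet, had 55.9, 67.3, 70.7 and 28.4 CPM in colon and 74.2, 62.4, 70.4 and 51.5 CPM in spleen, with overlap, and did not pass (-0.24 ± 0.22, adjusted p = 0.41). Il12rb2, the inducible interleukin-12 receptor chain, was 4.83-fold higher (2.27 ± 0.29, adjusted p = 0.00087), and Stat4, the factor it signals through, 2.78-fold (1.47 ± 0.20, adjusted p = 0.00069). Of 20 Th17 genes 13 were called higher and none lower (median 1.78). Besides the cytokines these were mainly Furin, a proprotein convertase (17-fold, adjusted p = 2.6e-06), Nfil3 (12.4-fold, adjusted p = 2e-05), the aryl hydrocarbon receptor gene Ahr (4.69-fold, adjusted p = 0.0011) and the nuclear receptor gene Rora (4.65-fold, adjusted p = 4.9e-06). Il23r did not pass (0.66 ± 0.43, adjusted p = 0.24).

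The regulatory T cell list was led by activation genes. Of 13 tested 8 were called higher and 1 lower, and those called higher included Ctla4, Tnfrsf4, Il2ra (the interleukin-2 receptor alpha chain, 4.52-fold, adjusted p = 8e-05) and Ikzf2, which encodes Helios (3.46-fold, adjusted p = 2e-05). Foxp3, the defining factor of the lineage, had 2.04, 2.25, 2.71 and 4.83 CPM in colon and 2.6, 0.269, 1.48 and 0.353 CPM in spleen. It did not pass in edgeR (1.68 ± 0.66, adjusted p = 0.073), but did in DESeq2 (1.73, adjusted p = 0.0199), in limma (1.75, adjusted p = 0.0493) and without spleen KO 1 (2.41, adjusted p = 0.00713). Nrp1, neuropilin-1, was the member called lower, at 6.47, 4.62, 6.94 and 2.42 CPM in colon and 73.1, 64.3, 69.1 and 27.4 CPM in spleen, 11.8-fold (-3.56 ± 0.24, adjusted p = 1.8e-05). Of 9 Th2 and repair genes 7 were called higher and none lower, including Il4ra (9.89-fold, adjusted p = 0.00094), while the Th2 factor Gata3 did not pass (0.03, adjusted p = 0.92). Of 9 follicular helper genes 2 were called higher and 2 lower, near the shares among all genes (23.0% and 21.0%).

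Of 19 cytotoxic genes 8 were called higher and 4 lower, against 23.0% and 21.0% of all genes, so the share called lower was that of all genes. Gzmb, granzyme B, had 749, 865, 639 and 882 CPM in colon and 174, 216, 218 and 247 CPM in spleen (1.88 ± 0.12, adjusted p = 6.6e-06), and the death ligand gene Fasl was 6.74-fold higher (2.75 ± 0.22, adjusted p = 7.2e-05). Serpinb9, the inhibitor that protects a cell from its own granzyme B, was 5.87-fold higher (2.55 ± 0.31, adjusted p = 0.00085). Gzma, granzyme A, did not pass (-0.12 ± 0.51, adjusted p = 0.87), with 788, 669, 716 and 1754 CPM in colon and 1082, 333, 902 and 2006 CPM in spleen. Its highest value in each tissue was in the control library of batch 2. Gzmm, granzyme M, was 5.68-fold lower (-2.51 ± 0.20, adjusted p = 1.9e-05), and Ly6c2, a surface protein of circulating effector cells, had 80.2, 33.1, 29.9 and 61.1 CPM in colon against 326, 272, 740 and 255 CPM in spleen (-2.84 ± 0.46, adjusted p = 0.0044), a call lost in batch 1 alone (-3.29, adjusted p = 0.33).

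Genes of TGF-beta signalling and of cyclic AMP signalling rose in the colon. Of 19 tested TGF-beta genes 15 were called higher and 1 lower, against 23.0% and 21.0% of all genes (median log2 fold change 1.07). Tgif1, a corepressor of SMAD factors, had 233, 368, 296 and 248 CPM in colon and 11.5, 15.6, 8.08 and 12.3 CPM in spleen (4.61 ± 0.18, adjusted p = 1.5e-06). The corepressor Skil was 13.5-fold higher (3.75 ± 0.18, adjusted p = 1.7e-06), Tgif2 10.9-fold (3.45 ± 0.16, adjusted p = 1.7e-06) and the target gene Pmepa1 17-fold (4.09 ± 0.24, adjusted p = 4.3e-06). Smad2, the member called lower (-0.34 ± 0.11, adjusted p = 0.028), kept its call in only 14 of 28 alternatives. It was lost in DESeq2 (-0.34, adjusted p = 0.0641) and without the replicate block (-0.34, adjusted p = 0.0571), among others.

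Of 16 cyclic AMP and neuropeptide genes 12 were called higher and 1 lower, against 23.0% and 21.0% of all genes (median log2 fold change 1.25). Crem, a nuclear factor induced by cyclic AMP, had 1219, 303, 1027 and 137 CPM in colon and 11.5, 12.8, 14 and 14.6 CPM in spleen (5.16 ± 0.69, adjusted p = 0.0029). Ramp3, which pairs with the receptor encoded by Calcrl, had 1020, 165, 984 and 125 CPM in colon and 3.16, 4.9, 6.06 and 9.7 CPM in spleen (5.92 ± 0.92, adjusted p = 0.0056). Both were several times higher in the colon libraries of batch 1 than in those of batch 2, while in spleen Crem was even and Ramp3 was higher in batch 2 than in batch 1. In KO alone the differences were as large but not called (5.58, adjusted p = 0.0932 for Crem and 6.46, adjusted p = 0.223 for Ramp3), and Ramp3 was not called in control alone either (5.43, adjusted p = 0.116). Calca, the gene of calcitonin and the neuropeptide CGRP, had 49.3, 9.99, 67.5 and 4.05 CPM in colon and 0, 0.0671, 0 and 0 CPM in spleen, where a single UMI was counted in all cells. The pooled ratio of colon over spleen was 962 with an exact 95% counting interval of 172 to 38016. Calcrl did not pass (-0.03 ± 0.27, adjusted p = 0.95). The phosphodiesterase gene Pde4b had 311, 219, 317 and 224 CPM in colon and 26.6, 20.9, 22.6 and 26.9 CPM in spleen (3.44 ± 0.15, adjusted p = 1.5e-06). The receptors for adenosine, Adora2a (4.11-fold, adjusted p = 0.0004), and for prostaglandin E2, Ptger2 (2.2-fold, adjusted p = 0.00026), were higher as well.

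Cell cycle genes were lower in the colon, with large differences between pairs of libraries. Of 30 tested, 24 were called lower (against 21.0% of all genes) and none higher, with a median log2 fold change of -1.10. All colon libraries were below all spleen libraries for 13, against 18.1% of all genes. Cdc20, an activator of the anaphase-promoting complex, had 9.22, 20.7, 6.43 and 33.1 CPM in colon and 45.9, 118, 54.3 and 55.6 CPM in spleen (-2.12 ± 0.35, adjusted p = 0.0035). Ccnb2, cyclin B2, had 16.1, 27.1, 18.9 and 60.8 CPM in colon and 136, 162, 114 and 95.6 CPM in spleen (-2.19 ± 0.41, adjusted p = 0.0065). Rrm2, a subunit of ribonucleotide reductase, fell by 1.87 (SE 0.32, adjusted p = 0.0038), and the mitotic kinase gene Plk1 by 2.47 (SE 0.44, adjusted p = 0.0044). Colon control 2 had the highest colon value of Cdc20, Ccnb2, Rrm2 and Plk1. The median of the list was -0.86, -1.56 and -1.92 in the KO 1, KO 2 and control 1 pairs and -0.15 in the control 2 pair, and 2 of the genes were called lower in batch 2 alone and 1 in control alone. In those 2 fits the list medians were -0.87 and -0.92, and 567 and 436 of all genes were called lower. The 24 became 7 without the replicate block, 14 without colon KO 2, 13 without spleen KO 2 and 13 without spleen control 1. The call of Rrm2 was lost in batch 1 alone (-2.29, adjusted p = 0.107), and those of Ccnb2 (-1.61, adjusted p = 0.0632) and Plk1 (-1.95, adjusted p = 0.0591) in batch 2 alone. Pcna, a clamp of DNA replication, did not pass (-0.06 ± 0.15, adjusted p = 0.75).

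Other gene groups are given by their counts, to be read against 23.0% called higher and 21.0% called lower among all genes. Of 17 S100, annexin and galectin genes 11 were called lower and 2 higher (median log2 fold change -0.55), with Lgals1, galectin-1, at 3112, 3329, 2828 and 3859 CPM in colon and 7078, 6516, 6175 and 5128 CPM in spleen (-0.92 ± 0.14, adjusted p = 0.00084) and Anxa1, annexin A1, 3.48-fold lower (adjusted p = 8.8e-05). In batch 2 alone 2 of them were called lower, and in control alone 1. There the list medians were -0.34 and -0.39, and 567 and 436 of all genes were called lower. Of 33 interferon-stimulated genes 8 were called lower, near the 21.0% of all genes, and 4 higher. With library totals 15 were lower and 3 higher. The 8 became 14 without spleen control 2 and 5 without spleen KO 2 or spleen control 1, and were 12 in KO alone and 2 in control alone. Over all genes, 1245 were called lower in KO alone and 436 in control alone. A difference between genotypes was not tested for the list. Among 14 BCL2 family genes 8 were higher and 4 lower, and both pro- and anti-apoptotic members were higher. Bcl2l11, the death-promoting BIM, was 9.89-fold higher (3.31 ± 0.25, adjusted p = 5.1e-05), and Bcl2a1b, an A1 survival gene whose reads can be shared with near-identical copies, 6.35-fold (2.67 ± 0.22, adjusted p = 7.7e-05), whereas Bid was 3.97-fold lower (adjusted p = 0.0001).

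Of 26 glycolysis and hypoxia genes 11 were called higher and 2 lower, and the larger differences were in a few genes. The background for the counts in this paragraph is 23.0% higher and 21.0% lower among all genes. Hk2, hexokinase 2, had 83.4, 79.9, 104 and 27.1 CPM in colon and 5.02, 1.68, 2.56 and 2.38 CPM in spleen (4.67 ± 0.39, adjusted p = 0.00017), and the hypoxia factor gene Hif1a was 6.26-fold higher (2.65 ± 0.15, adjusted p = 3.6e-06). Insig1, a sterol-sensing protein of the endoplasmic reticulum, was 5.06-fold higher (2.34 ± 0.19, adjusted p = 4e-05), among 8 of 22 cholesterol and fatty acid genes called higher and 2 lower. Of 78 cytosolic ribosomal protein genes 30 were called higher and 2 lower (median 0.29), but with library totals these counts were 5 and 4, in batch 2 alone 2 and 0, and in control alone 0 and 0. Over all genes, 1006 were called higher in batch 2 alone and 995 in control alone, against 2400 with all libraries. Without the replicate block 1 was called higher, and leaving out 1 library gave 11 without colon control 1, spleen KO 1, spleen KO 2 or spleen control 1, 14 without colon KO 1 or colon KO 2, 34 without colon control 2 and 52 without spleen control 2. Of 77 nuclear genes of oxidative phosphorylation 9 were called higher and 4 lower, although with library totals 1 was higher and 34 lower, and without spleen control 1 the counts were 5 and 2. Of 45 proteasome genes 3 were called higher and 7 lower, against 1 and 25 with library totals and 1 and 4 without spleen control 1.

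**Figure D5:**
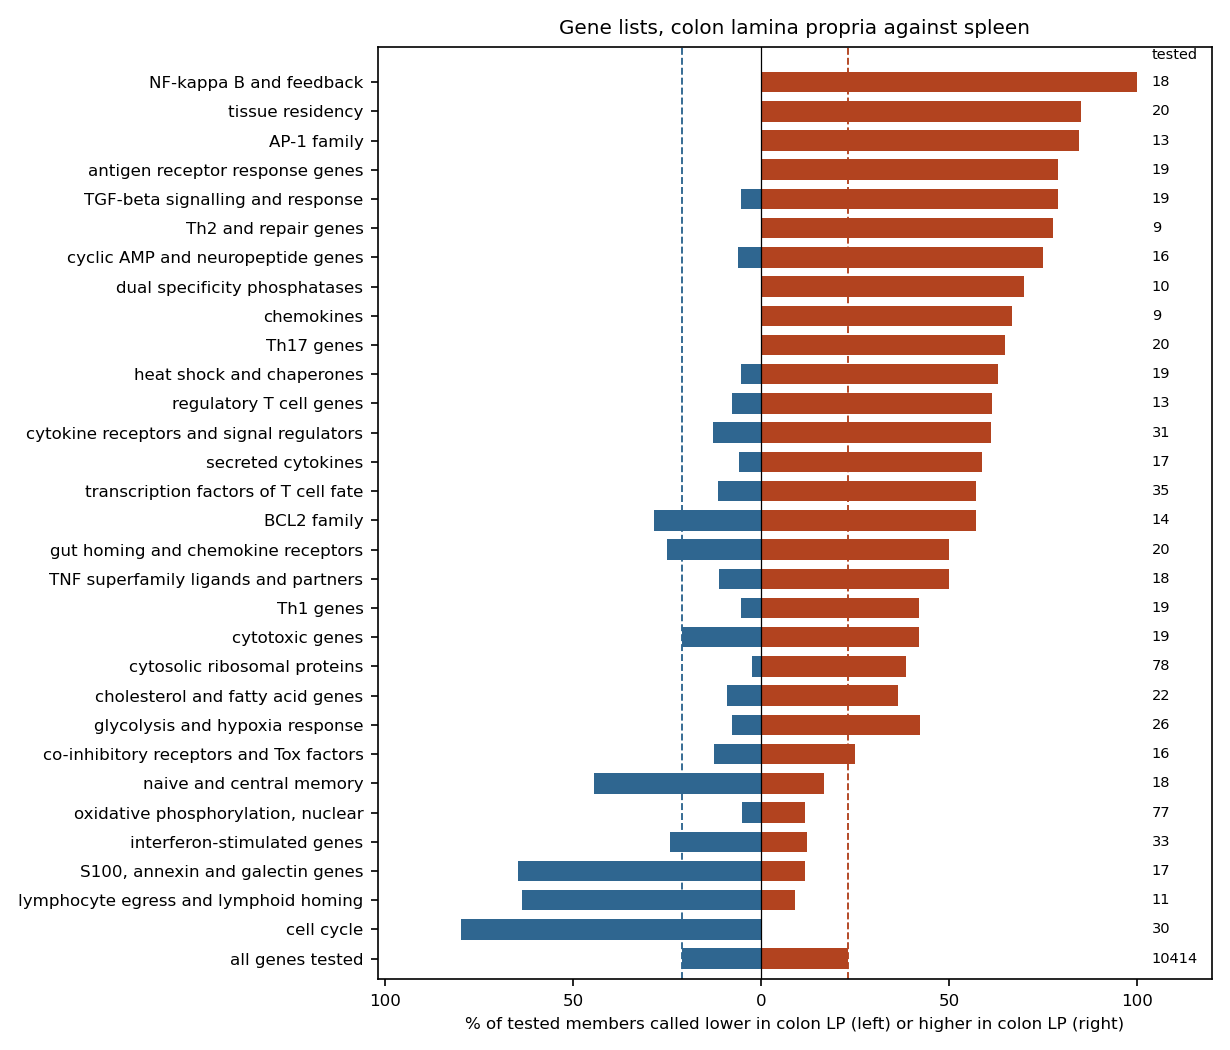
Share of the tested members of 30 gene lists, and of all genes, called higher (red, to the right) or lower (blue, to the left) in colon LP, with the number tested at the right. Dashed lines mark the shares among all 10414 genes, 23.0% higher and 21.0% lower; NF-kappa B genes reach 100% higher and cell cycle genes 80.0% lower.

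Markers of other cells were counted in both tissues. Among all genes, 23.0% were called higher and 21.0% lower. The 21 epithelial markers summed to 18.4 to 199 CPM in colon libraries and 3.76 to 16.4 CPM in spleen libraries, 3 of the 4 that could be tested were called higher, and Slc26a3 was at 0 in both. The 12 stromal and endothelial markers summed to 49.1 to 64.1 CPM in colon and 29.9 to 37.9 CPM in spleen, with 2 of 3 tested called higher. None of 6 B cell and 8 macrophage or monocyte markers tested was called, and these lists summed to 165 to 470 and 17.6 to 46.4 CPM in colon against 95.3 to 634 and 26.2 to 148 CPM in spleen. Of 5 dendritic cell markers tested 2 were called higher, and of 7 natural killer and innate lymphoid markers 1 was called higher and 1 lower, with sums of 92.4 to 223 CPM in colon and 122 to 422 CPM in spleen. The single neutrophil marker tested, Mmp9, was called higher. With library totals 2 of the macrophage or monocyte markers were called lower. Of the B cell markers, 5 of 6 were called higher in control alone, 3 of 5 in batch 2 alone, and 2 of 6 without colon KO 1 or without spleen KO 1, while in KO alone 1 of 6 was called lower. None of 5 erythroid markers was called, with sums of 3.88 to 1821 CPM in colon and 2.65 to 196 CPM in spleen, and no plasma cell or mast cell marker was high enough to be tested. Among cells without a UMI of 10 markers of other cell types, 4424 genes were called, of which 4305 were also called among all kept cells, in the same direction.

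The colon difference was also compared between genotypes and between batches. The test of whether it differed between KO and control, in either direction, called 0 genes in edgeR (0.0% of those tested), with 200 at an unadjusted p below 0.05, 1 gene in DESeq2 and 0 in limma. Genes with the smallest p, none of which passed, were the sialyltransferase gene St6gal1 (KO minus control -1.52), the transcription factor gene Zeb2 (-1.12), Serinc3 (-1.20), the lysozyme gene Lyz2 (-8.10) and the interferon-induced GTPase gene Irgm1 (-1.93). Il17a was higher in the colon libraries of KO than in those of control, but its tissue difference did not differ detectably between genotypes (KO minus control 4.74 ± 1.82 on the log2 scale, adjusted p = 0.99999). For Ifng this difference of differences was -0.07 ± 0.55 and for Areg 0.27 ± 0.79.

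The test between batches also called 0 genes in edgeR (0.0%), with 1177 at an unadjusted p below 0.05, 66 in DESeq2 and 0 in limma. Its smallest p belonged to Gabpb1, a subunit of the factor GABP, with 290, 88.6, 280 and 73.5 CPM in colon and 23.6, 38.8, 23.8 and 25.6 CPM in spleen (batch 2 minus batch 1 -2.24 ± 0.24, adjusted p = 0.057). Got1, the cytosolic aspartate aminotransferase, had 805, 210, 733 and 127 CPM in colon and 29.4, 26.7, 28.4 and 28.7 CPM in spleen (-2.15 ± 0.28, adjusted p = 0.086). In both the colon values of batch 1 were several times those of batch 2, and the spleen values were near each other for Got1, while for Gabpb1 spleen KO 2 lay above the other spleen libraries. Rcl1, Cirbp, a cold-inducible RNA-binding protein gene, and Isy1 came next and did not pass either (adjusted p = 0.086 each).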

How the data were processed

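Single cells were captured with the 10x Genomics 3′ version 2 chemistry and aligned with Cell Ranger 2.0.2 to mm10, per the submitters' processing notes. The values are whole-number UMI counts per gene and cell, as deposited by the authors in 1 table of 32763 cells, with a cell table that gives sample and batch. That table has 2 further columns, which were not used. Genotype, tissue and replicate came from the labels, which do not say that replicates are separate animals, so p-values measure the spread between these libraries.

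From these counts, cells with 3 or more UMIs of the 3 CD3 chain genes were summed per library. CD3 genes are therefore no finding. No doublet caller was run. Genes were filtered with filterByExpr and tested with edgeR 4.0.16 (R 4.3.3; TMM, robust quasi-likelihood) with tissue, genotype and batch as terms. Benjamini-Hochberg adjustment ran over all 10414 genes, with a threshold of 0.05. Standard errors were derived from the log2 fold change and its quasi-likelihood F statistic. CPM are UMI counts of kept cells over the UMIs of all tested genes, scaled by TMM to a common total.

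The replicate number equals the batch for all 32763 cells, and libraries of the same number deviated together (correlations of 0.25 to 0.49, and 0.17 to 0.44 without sex-linked genes). The numbers thus mark a shared batch. Colon and spleen correlated at 0.33 (KO) and 0.43 (control) within a genotype. Across genotypes, colon control with spleen KO gave 0.45 and colon KO with spleen control 0.25. A closer match of colon and spleen within a genotype was therefore not shown. Genes were named as the 15 largest called fold changes each way, up to 5 called members of a list by smallest p, the 5 smallest p of each interaction, a fixed set of known T cell genes, and members that did not pass; some genes this rule names are not reported here. Members and lists were chosen with earlier results of these data known. Areg was also given its promoter after its values were seen and because its window held the cyclic AMP response element. Alternatives were other scalings, filters, cell sets, blocks, limma 3.58.1, DESeq2 1.42.0, thinning to 1500 UMIs and leaving out libraries, batches or genotypes. Shares of cells with a UMI are not given, because 0 B cell and 3 and 17 myeloid barcodes in colon and spleen were too few to measure background. Intervals cover counting error only.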

Additional observations from a re-analysis of the deposited data

Results flagged for a closer look

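Within a tissue, 18 of 272 groups of 4 libraries held 1 library whose gap to the nearest other, as a share of the range, exceeded the critical value of Dixon's test. Chance alone gives about 1 such group in 20, and 18 of 272 is near that share. The groups share libraries, so they are not independent. Causes of these gaps were not tested.

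Colon control 2 stood apart most often. It was the highest colon library for Itgae, at 60.9 CPM against 18.4 to 23.1 CPM in the other colon libraries, for Itga4, at 131 CPM against 82.6 to 88.6 CPM, for Gzma, at 1754 CPM against 669 to 788 CPM, and for Gzmm, at 10.0 CPM against 4.37 to 4.91 CPM. It was the lowest for Atf3, at 6.21 CPM against 92.7 to 109 CPM, and for the constitutive chaperone gene Hspa8, at 2809 CPM against 6319 to 6551 CPM.

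Colon KO 2 was the lowest colon library for S1pr4, at 103 CPM against 164 to 169 CPM, and the highest for Dusp1, at 584 CPM against 301 to 339 CPM, and for Tgif2, at 67.4 CPM against 43.5 to 44.7 CPM.

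Among spleen libraries, KO 1 was the highest for Dusp1, at 24.0 CPM against 12.7 to 14.3 CPM, for Tnfsf8, at 95.4 CPM against 61.5 to 64.4 CPM, and for Lyz2, a myeloid gene, at 131 CPM against 0.135 to 21.9 CPM. Spleen KO 2 was the highest for Rora, at 112 CPM against 95.9 to 96.5 CPM, for Cdc20, at 118 CPM against 45.9 to 55.6 CPM, and for Gabpb1, at 38.8 CPM against 23.6 to 25.6 CPM. Spleen control 1 was the highest for Ly6c2, at 740 CPM against 255 to 326 CPM. Spleen control 2 was the highest for Ccr9, at 21.5 CPM against 2.05 to 3.89 CPM, and the lowest for the interferon-stimulated gene Usp18, at 3.35 CPM against 8.62 to 9.60 CPM.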

How the results depend on the processing

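Of 3667 values of 132 named genes under alternatives, 3580 kept their side of the threshold, 54 lost the call, 32 gained it and 1 reversed. A change of sign was counted as a reversal only where the gene was called in the main fit or the alternative. Genes called in neither, such as Calcrl (-0.40 to 0.36) and Tnf (-0.40 to 0.22), could change sign and still count among the 3580. That 1 was Lyz2, 4.10 on the log2 scale in control alone (adjusted p = 0.00322), where its value over all libraries was -0.93, and the cause was not tested. The 4588 calls became 2549 (1301 higher, 1248 lower) among genes with a mean CPM of 20 or more, where fewer genes were tested, 1573 (976, 9.37%, higher and 597, 5.73%, lower) against a fold change of 1.5, 1573 (1006 and 567) in batch 2 alone, 2844 (1599 and 1245) in KO alone and 1431 (995 and 436) in control alone. Batch 1 alone, with as many libraries as batch 2 alone, gave 4390 (2403 and 1987), and the cause was not tested. With library totals 1577 were higher and 3713 lower. Without the replicate block 3647 genes were called, 3638 of them also called with it, and with a replicate block of 4 pairs 4371. Leaving out 1 library gave 3281 to 4560 calls. The 0 calls between genotypes became 1 in DESeq2 and 0 to 2 without 1 library. The 0 calls between batches became 1 with the replicate block of 4 pairs, with DESeq2 size factors, with 6 or more CD3 UMIs and among Cd4 cells, 2 with 1 or more CD3 UMIs, 49 without the expression filter, 66 in DESeq2 and 0 to 7 without 1 library. Depth limits genes such as Il17a and Foxp3, which stand on few UMIs in spleen.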
